A study of Mus musculus with 2 samples.

Results

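Conventional CD4 T cells of the distant tumor were described in 2 single-cell libraries, as 1222 barcodes of the 19950 kept in the series. A barcode was a member if it held at least 2 unique molecular identifiers (UMIs, single counted transcripts) of Cd3d, Cd3e and Cd3g together, at least 1 UMI of Cd4, none of Cd8a, Cd8b1 or Foxp3, and fewer than 10 of the complement genes C1qa, C1qb and C1qc. There were 603 members in the MWA library and 619 in the MWA plus TIGIT library. C57BL/6 mice carried MC38 colon tumors on both flanks, and microwave ablation (MWA) was applied to the right tumor at about 300 mm3. The left, untreated tumor was taken on day 8 after MWA in both groups, and its CD45+ leukocytes were sorted and sequenced from the 3′ end of the transcript. The MWA plus TIGIT mice also received an antibody against the receptor TIGIT in 3 injections, 1 every 3 days from day 1 after MWA. Each group was 1 library and the sources used here do not say how many mice it held, so no difference between the groups could be tested. Intervals given below are 95% intervals that cover counting error only, and reads of 1 large cell can fill a gene's sum.

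CD4 T cells recognize peptides on MHC class II molecules and help other leukocytes through cytokines and through CD40 ligand, which engages CD40 on dendritic cells, B cells and macrophages. Conventional CD4 T cells are those without Foxp3, the transcription factor of regulatory T cells, and they include naive, T helper 1, T helper 2, T helper 17 and cytotoxic states. TIGIT is an inhibitory receptor of T and natural killer cells that shares its ligands with the costimulatory receptor CD226.

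The label could be checked with Cd40lg, which the choice of barcodes did not use. Cd40lg (chromosome X, 57212143 to 57224042 in GRCm38, on the plus strand) had a UMI in 180 of 603 members of the MWA library, 29.9% (26.2 to 33.7), and in 251 of 619 members of the MWA plus TIGIT library, 40.5% (36.7 to 44.5). In CD8 T cells, taken by the same limits with Cd8a or Cd8b1 and without Cd4, the shares were 1.46% of 1646 cells and 2.0% of 1799 cells. In macrophages, which should lack the gene, they were 0.0263% of 3808 cells and 0.118% of 4241 cells, although macrophages held a median of 8596 and 10544 UMIs against 3447 and 3857 in the members. The members thus stood far above this background in both libraries, though the background left out macrophage barcodes that held Cd3 UMIs. Cd3e, an invariant chain of the T cell receptor complex that was used in the choice, had a UMI in 80.9% and 86.6% of the members.

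Most members sat close to the limits of the choice. Cd4 was seen as exactly 1 UMI in 404 members of the MWA library and 393 of the MWA plus TIGIT library, as 2 UMIs in 152 and 147, and as 3 or more in 47 and 79. Just outside the limits were 64 and 47 barcodes that differed from a member by 1 Foxp3 UMI, 26 and 29 that differed by 1 Cd8a or Cd8b1 UMI, and 42 and 43 with 10 or more C1q UMIs. At least 1 C1q UMI was present in 414 and 438 members. T cell barcodes with no UMI of Cd4, Cd8a or Cd8b1 numbered 1723 of 4468 and 1256 of 4119. A total of 37 barcode sequences occurred in both libraries, and 0 of them were members in both. Simulated-doublet scoring marked 14 and 27 of the members as likely doublets.

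Beside CD8 T cells, Cd40lg had the highest ratio in the members, followed in the MWA library by Areg, Maf and Tnfrsf4. The values here are levels in CPM, a gene's UMIs per 1000000 UMIs of the summed cells, and since the cells were chosen by Cd4, Cd8a, Cd8b1 and Foxp3 they are a description. Cd40lg stood at 115 CPM in the members and 4.76 in CD8 T cells of the MWA library, 24.2 times as high (17.3 to 34.8), and at 147 and 5.54 in the MWA plus TIGIT library, 26.6 times as high (19.7 to 36.5). Maf, a transcription factor of interleukin-10, interleukin-21 and interleukin-4 producing T cells, was 9.73 (8.20 to 11.6) and 13.0 (11.1 to 15.4) times as high. Areg, the growth factor amphiregulin, was 9.89 (7.0 to 14.2) and 22.6 (15.7 to 33.3) times as high. Tnfrsf4, the costimulatory receptor OX40, was 7.19 and 10.8 times as high, and Tnfsf11, which encodes RANK ligand, 5.12 and 5.74 times. Il2ra, Tnfsf8, Krt83, Tmem176a and Tmem176b completed the 10 highest, at 3.43 to 7.70 times the CD8 T cell level. Of the Areg UMIs of the members 89 of 130 and 151 of 243, and of the Il2ra UMIs 138 of 240 and 165 of 289, lay in the regulatory T-like cluster 3 described below. The cytotoxic genes Nkg7 and Gzmb and the chemokine gene Ccl5 were lower in the members. Nkg7 was at 0.278 and 0.236, Gzmb at 0.248 and 0.265 and Ccl5 at 0.227 and 0.166 of the CD8 T cell level.

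Beside regulatory T cells, the barcodes with the same limits but at least 1 Foxp3 UMI (148 and 142 cells), the order was different. Cd40lg was 7.38 (3.83 to 16.3) and 17 (7.21 to 52.5) times as high in the members. Ifng, the gene of interferon-γ, stood at 191 and 164 CPM in the members against 15.6 and 19.1 in regulatory T cells, 12.2 (6.39 to 26.9) and 8.61 (4.77 to 17.4) times as high. Bcl2, which protects cells from apoptosis, was 6.01 (4.04 to 9.37) and 8.62 (5.49 to 14.4) times as high, and Ly6c2 11.3 (7.21 to 18.9) and 7.50 (5.08 to 11.5) times. Tcf7, a transcription factor of naive and memory T cells, had 247 and 324 UMIs in the members and 2 in regulatory T cells of each library, a ratio of 29.7 (8.14 to 247) and 33.3 (9.16 to 277). Tnfsf8, the gene of CD30 ligand, had 308 and 468 UMIs against 2 and 2, a ratio of 37.1 (10.2 to 307) and 48.2 (13.3 to 399). Of the Tnfsf8 UMIs of the members, 114 and 268 lay in cluster 6 described below. Ccl1, Gzma, Xcl1 and Ifitm1 were also among the 10 highest. In the other direction, Ikzf2, Il2ra, Gzmb, Ctla4 and Tnfrsf4 stood at 0.110 to 0.239 of the regulatory T cell level in both libraries.

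**Figure D1:**
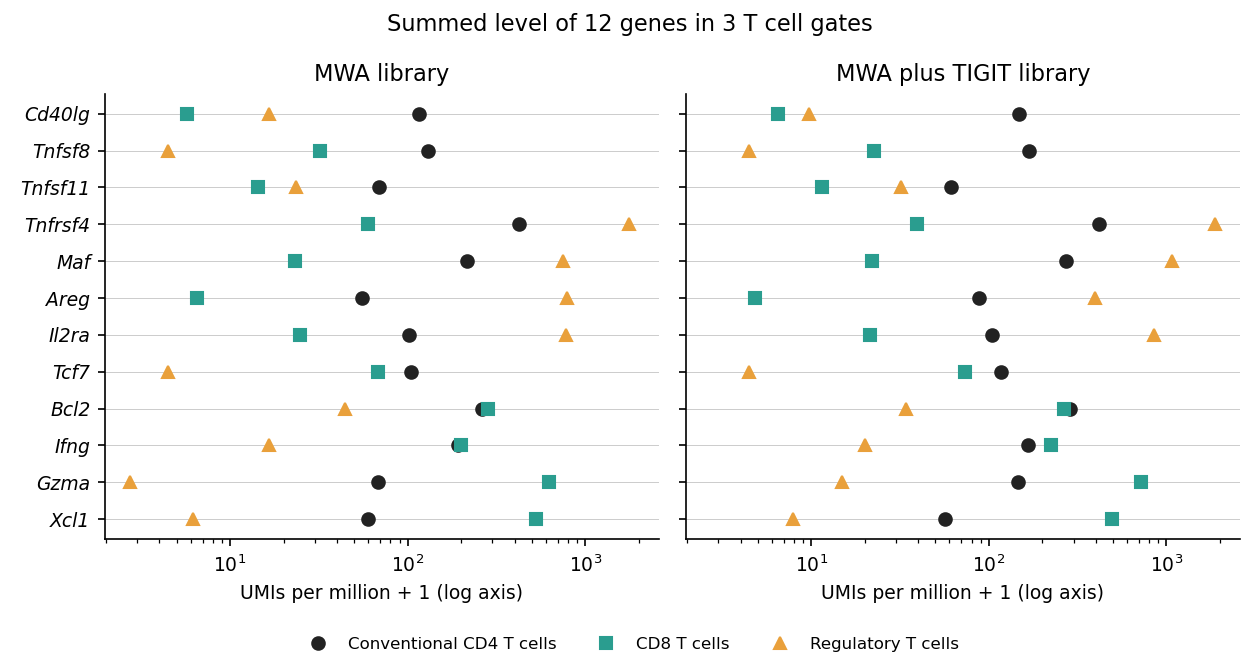
Levels of 12 genes in CPM plus 1 (log axis), for conventional CD4 T cells, CD8 T cells and regulatory T cells, with 1 panel for each library and 1 point for each sum of cells. Cd40lg, Tnfsf8 and Tnfsf11 are highest in conventional CD4 T cells in both panels, Tnfrsf4, Maf, Areg and Il2ra lie between the other two, and Gzma and Xcl1 are highest in CD8 T cells.

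The members fell into 9 clusters, built from their own genes and described here without a test. Clusters were named only where markers from the fixed lists led them. Cluster 1 (396 cells, 32.4% of the members) was led by Klrd1, Ccl5, Fasl, Klrk1 and Bcl2, which are genes of cytotoxic and memory T cells, and Ifng had a UMI in 42.9% of its cells. Cluster 2 (321 cells) had few leading genes, with Cxcr3 among them, and was left without a name. Cluster 4 (120 cells) was naive and central memory-like, led by Igfbp4, Tcf7 and S1pr1 among others, with Tcf7 in 63.3% of its cells. Cluster 5 (86 cells) was cycling-like, with Mki67 in 82.6% and Top2a in 88.4%, and its median of 7987 UMIs was the highest of the 9. Cluster 7 (53 cells) was interferon-induced-like, with Isg15 in 90.6% of its cells. These 5 clusters all held Cd40lg in at least 30.8% of their cells.

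The remaining clusters were sharply marked. Cluster 3 (125 cells) was regulatory T-like, and its lack of Foxp3 UMIs was fixed by the choice of barcodes. It was led by Ikzf2 (a UMI in 88.8% of its cells), Gzmb (59.2%), Areg (28.8%) and Il10 (28.8%), and Cd40lg was seen in 0 of its 64 cells of the MWA library (exact interval up to 5.6%), and in 1 of 61 of the MWA plus TIGIT library. Cluster 8 (42 cells) was T helper 17-like, with Il22 in 35.7% and Il17a in 26.2%. Cluster 6 (57 cells) was led by Ccl1, Penk, Igfbp7, Lgals7, Tnfsf8 and Cd200, matched no list and was left without a name. Gata3, the transcription factor of T helper 2 cells, had a UMI in 64.9% of the cells of cluster 6 and Il13 in 15.8%, and its Ikzf2 share was 42.1%. Cluster 9 (22 cells) was led by the myeloid genes Il1b, Cst3, Spp1, Cd74 and Tyrobp and was not named.

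**Figure D2:**
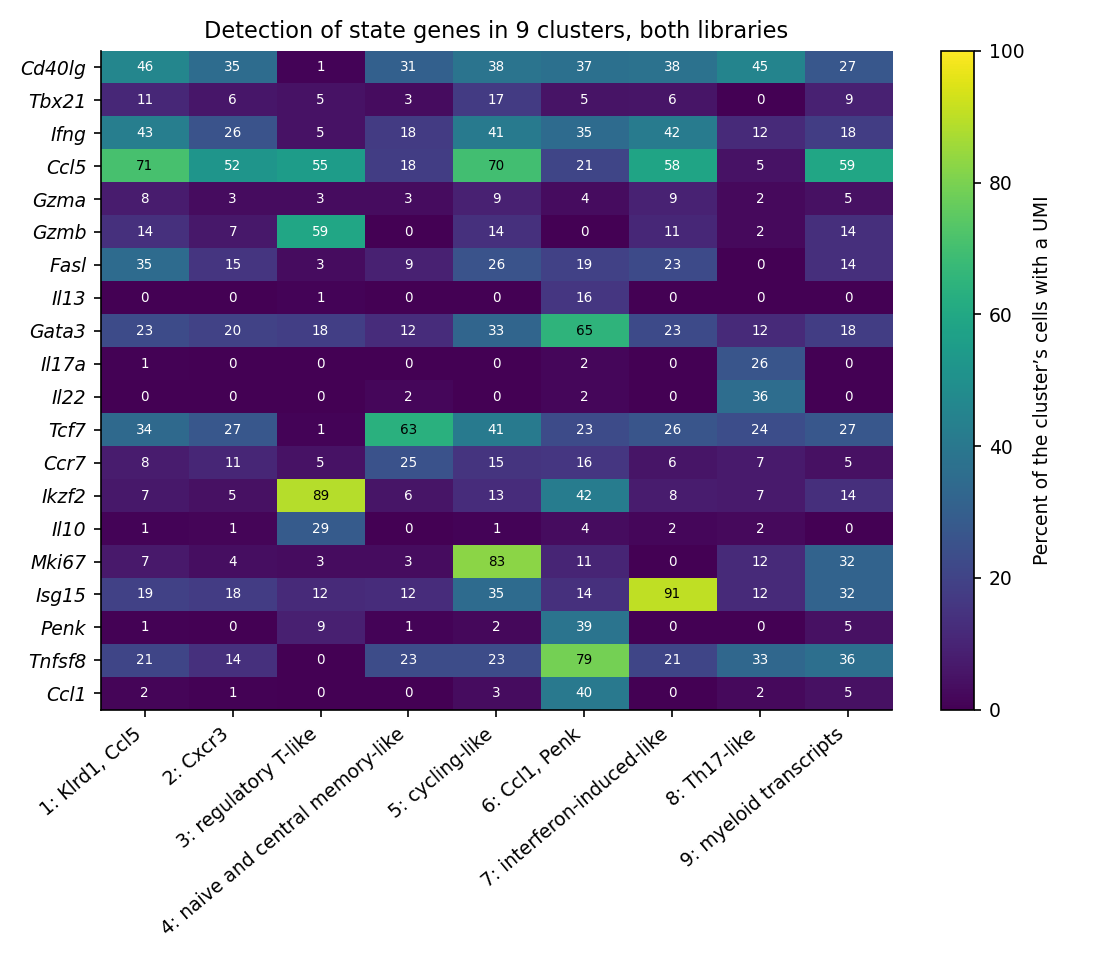
Percent of the cells of each cluster with a UMI of 20 state genes, over both libraries (rows, genes; columns, clusters; the number in each field is the percent). Ikzf2 marks cluster 3 at 89, Mki67 cluster 5 at 83, Isg15 cluster 7 at 91 and Tnfsf8 cluster 6 at 79, while Cd40lg is present in 27 to 46 percent of every cluster but cluster 3.

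**Figure D3:**
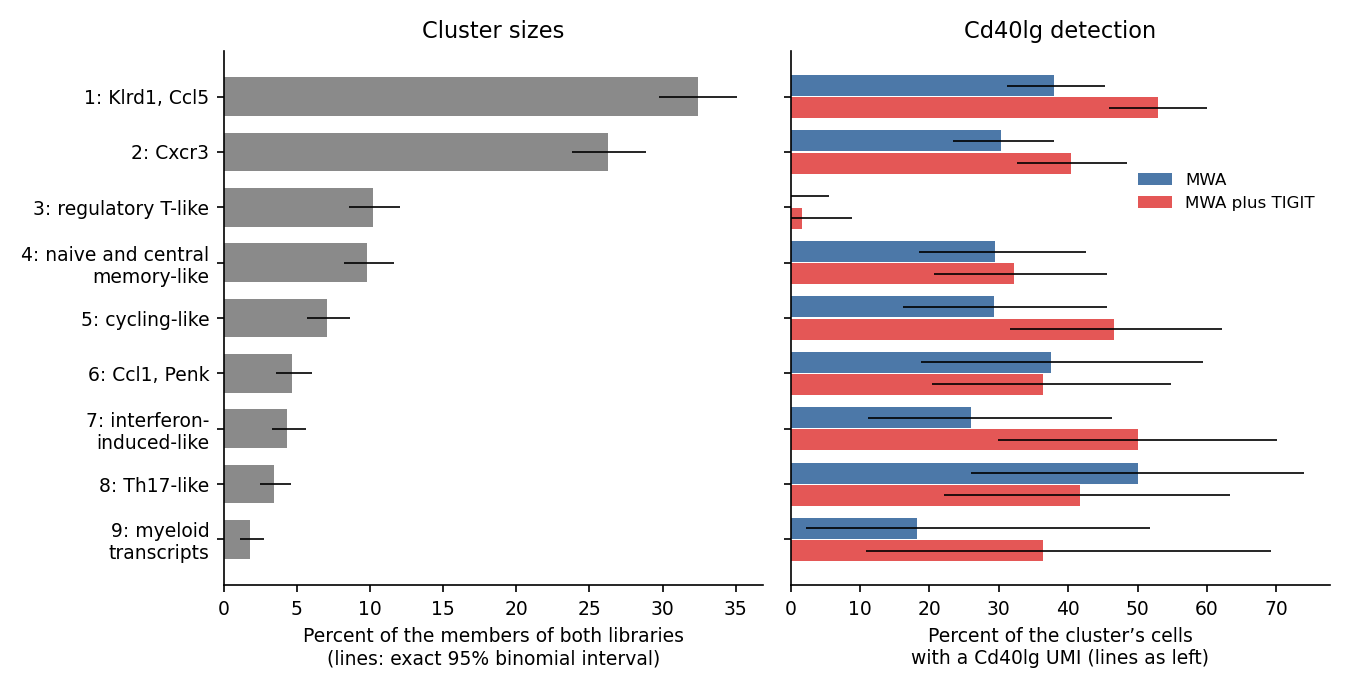
Left, size of each cluster as percent of the 1222 members of both libraries. Right, percent of its cells with a Cd40lg UMI in each library; lines are exact binomial intervals. Clusters 1 and 2 are the largest at 32.4% and 26.3%, and cluster 3 is the only one with Cd40lg near 0.

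Because some leading genes differed between the libraries, cluster sizes were compared after the genes called between the libraries had been left out of the clustering. The cycling-like cluster then held 40 members (6.63%) in the MWA library and 43 (6.95%) in the MWA plus TIGIT library, a difference of 0.313 percentage points (−2.65 to 3.26). The regulatory T-like cluster held 64 (10.6%) and 58 (9.37%), a difference of −1.24 points (−4.74 to 2.24), and the naive and central memory-like cluster 56 (9.29%) and 58 (9.37%). The cluster of Ccl1 and Penk held 27 (4.48%) and 34 (5.49%), a difference of 1.02 points (−1.56 to 3.60), and the T helper 17-like cluster 19 (3.15%) and 24 (3.88%). None of the 9 matched clusters differed in size beyond counting error. Cluster 1 was not kept as 1 cluster in that setting, where 49.0% of its cells stayed together.

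The members made up 13.5% (12.5 to 14.5) of the T cell barcodes of the MWA library and 15% (13.9 to 16.2) of those of the MWA plus TIGIT library, a difference of 1.53 points (0.0359 to 3.03). As a share of all kept barcodes they were 6.01% (5.55 to 6.49) and 6.24% (5.78 to 6.74), a difference of 0.237 points (−0.436 to 0.910). Among barcodes with at most 5000 UMIs the difference in the share of T cell barcodes was −0.0132 points (−1.93 to 1.91). Without called doublets it was 1.16 points (−0.469 to 2.80).

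Between the libraries, 9179 genes had at least 20 UMIs summed over the members. A gene was called if its ratio of CPM was at least 2-fold and its counting interval left out 1. With anti-TIGIT, 219 genes were called higher (2.39% of those measured) and 52 lower (0.567%). The median log2 ratio (MWA plus TIGIT over MWA) of all measured genes was 0.13, and scaling by TMM factors, which moved every ratio by −0.12, left 160 called higher and 78 lower. Of the 271 calls (2.95%), 22 had more UMIs of their higher library in 1 cell than in all others together. Without the highest cell of each library 187 (2.04%) stayed at least 2-fold higher and 42 (0.458%) at least 2-fold lower.

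Several of the highest ratios came from single cells. Ctsk, a cathepsin of osteoclasts and macrophages, had 1 UMI in the MWA library and 196 in the MWA plus TIGIT library, of which 193 were in 1 cell. Calca, which encodes the neuropeptide CGRP, had 14 and 511 UMIs, of which 492 were in 1 cell of the MWA plus TIGIT library. Acp5 had 160 and 503, with 302 in 1 cell. On the low side, Spp1 (osteopontin) had 174 and 47 UMIs, with 110 in 1 cell of the MWA library, and Ccl1 had 219 and 156, with 111 in 1 cell of the MWA library. Without these cells the log2 ratio of Calca was 0.70 (−0.48 to 1.97), that of Acp5 0.14, that of Ccl1 −0.00391 and that of Spp1 −0.83 (−1.43 to −0.25). The 22 cells of the myeloid-led cluster 9 held 193 of the 196 Ctsk UMIs and 304 of the 503 Acp5 UMIs of the MWA plus TIGIT library, and 128 of the 174 Spp1 and 173 of the 243 Cxcl2 UMIs of the MWA library. Without clusters 3 and 9 the log2 ratio was 0.13 (−0.19 to 0.46) for Acp5, −0.28 (−0.99 to 0.42) for Spp1 and −0.68 (−1.27 to −0.09) for Cxcl2. The other named genes are described by their roles below.

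**Figure D4:**
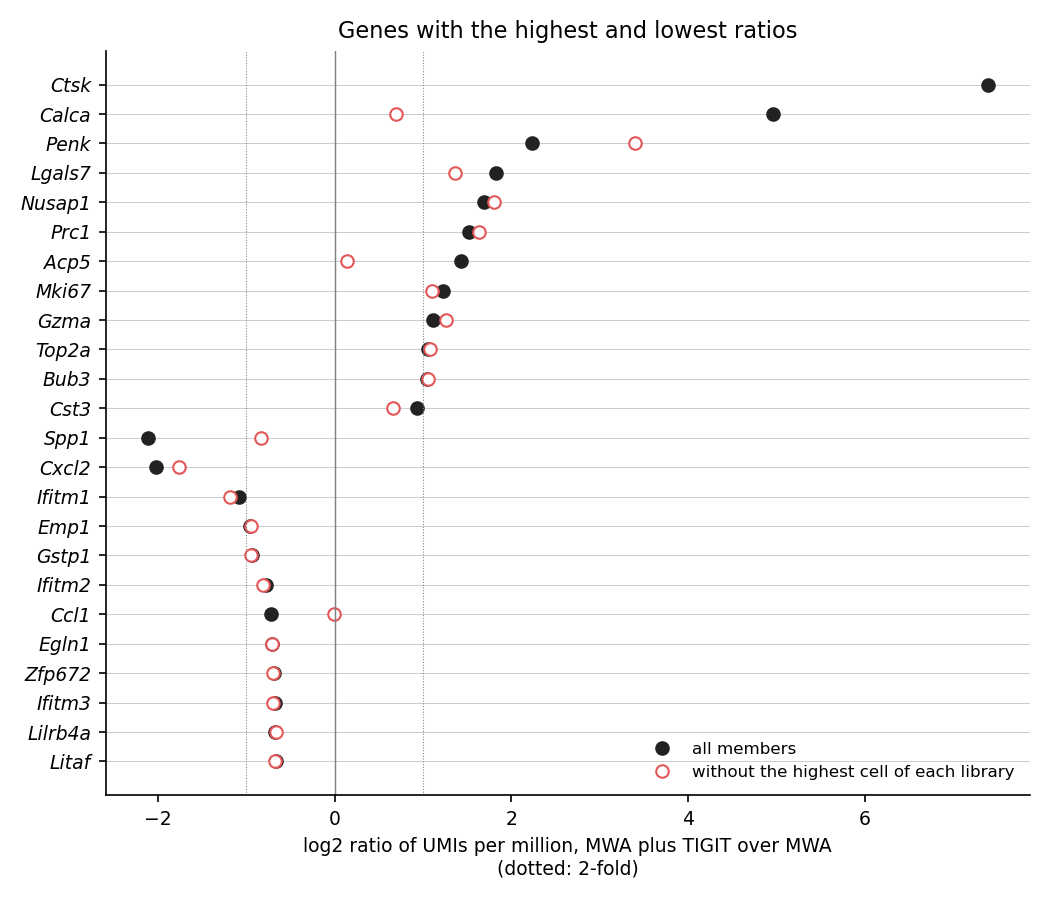
Log2 ratio of CPM (MWA plus TIGIT over MWA) of 12 genes at the top and 12 at the bottom of the ratios under the naming rule, with all members (filled) and without the highest cell of each library (open; none for Ctsk, which then had at most 3 UMIs in each). The open points of Calca, Acp5 and Ccl1 lie well toward 0, while those of Nusap1, Gzma, Top2a, Bub3, Ifitm1 and Gstp1 stay close to their filled points.

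Cell cycle genes were higher in the members of the MWA plus TIGIT library. Of the 20 genes of the list, 19 had a ratio above 0, 15 had an interval above 0 and 4 were called higher. Of all 9179 measured genes 6105 had a ratio above 0, 12.3% had an interval above 0 and 2.39% were called higher. The median log2 ratio of the list was 0.63 beside 0.13 for all genes. Mki67, the proliferation antigen Ki-67 (chromosome 7, 135689784 to 135716361, minus strand), had 152 UMIs in 53 members of the MWA library and 415 UMIs in 83 members of the MWA plus TIGIT library, a log2 ratio of 1.22 (0.95 to 1.5). Top2a, the topoisomerase of chromosome separation, had 233 UMIs in 78 cells and 568 in 112 cells (1.06, 0.84 to 1.29). The spindle gene Nusap1 had 52 UMIs in 22 cells and 197 in 42 cells (1.70, 1.2 to 2.17), and Rrm2, a subunit of ribonucleotide reductase, had 48 UMIs in 21 cells and 113 in 46 cells (1.01, 0.51 to 1.53). The mitotic genes Prc1 and Bub3, outside the list, had 45 and 151 and 69 and 167 UMIs. Genes of DNA replication licensing were mixed, with Mcm7 at 0.81 (0.41 to 1.23) and Mcm6 at 0.55 (0.23 to 0.87), whereas the intervals of Mcm2, Mcm3 and Mcm5 held 0. Tyms was at −0.06 (−0.41 to 0.30).

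The higher mitotic UMIs lay mostly within the cycling-like cells. Within cluster 5, which these genes helped to define, Mki67 had 126 UMIs in 30 of 41 cells of the MWA library and 356 UMIs in 41 of 45 cells of the MWA plus TIGIT library, and Top2a 178 and 459 UMIs. Cells of cluster 5 held a median of 7419 and 8839 UMIs. Among members with at most 5000 UMIs, Mki67 was present in 17 of 458 (3.71%) and 21 of 417 (5.04%). There the median log2 ratio of the list was 0.27, and Nusap1 was at 0.21 (−1.17 to 1.60), no longer called. Without members that held Il2ra or Ikzf2, Mki67 was at 0.58 (0.22 to 0.94) and Top2a at 0.60 (0.32 to 0.88), below 2-fold. The shares of members with Mki67 after each cell was thinned to 1000 UMIs were 2.69% and 5.35%, a difference of 2.66 points (0.340 to 5.03), beside 5.39% and 6.66% of CD8 T cells and 5.09% and 5.33% of macrophages.

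The same 20 genes had other ratios in the other T cells. In CD8 T cells 18 of 20 were above 0 and 0 were called, with a median log2 ratio of 0.22 beside 0.13 for all genes measured in those cells. Of those 9140 genes 6548 were above 0, 38 were called higher and 23 lower. In regulatory T cells 18 of the 19 measured were below 0 and 5 were called lower, with a median of −0.71 beside 0.09. Of all 5733 genes measured in regulatory T cells 2507 were below 0 and 103 were called lower. Mki67 was at 0.40 (0.28 to 0.53) in CD8 T cells and −0.56 (−1.11 to −0.01) in regulatory T cells, and Nusap1 at 0.16 (−0.01 to 0.34) and −3.13 (−5.08 to −1.65). The regulatory T cell values rest on 17 and 13 cells with Mki67. With 1 library for each group, whether the cell types differ in this was not tested.

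Among cytotoxic genes, Gzma was called higher with anti-TIGIT, and Gzmb and Fasl had intervals above 0 without a call. Of the 14 genes of the list, 10 were measured, 1 was called higher and 0 lower, beside 2.39% and 0.567% of all measured genes. The median log2 ratio of the list was 0.06. Gzma (chromosome 13, 113093825 to 113100981, minus strand) had 160 UMIs in 19 cells of the MWA library and 405 UMIs in 47 cells of the MWA plus TIGIT library, a log2 ratio of 1.11 (0.85 to 1.39), and 1.26 (0.96 to 1.57) without the highest cell of each. Most of these UMIs were in cluster 1, with 95 UMIs in 7 cells and 335 in 23 cells. In CD8 T cells the Gzma ratio was 0.22 (0.16 to 0.27). Gzmb had 236 UMIs in 74 cells and 495 in 98 cells (0.84, 0.62 to 1.07), but 134 and 323 of them were in the regulatory T-like cluster 3, and without clusters 3 and 9 its ratio was 0.54 (0.17 to 0.91). Fasl was at 0.34 (0.02 to 0.67), while Nkg7, Ctsw, Klrk1 and Gzmk had intervals that held 0.

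T helper 1 genes were split. The 16 genes of the list had a median log2 ratio of 0.08, with 5 intervals above 0, 4 below 0 and 0 called. Among all measured genes 12.3% had intervals above 0 and 3.43% below. Tbx21, which encodes the lineage factor T-bet, had 33 UMIs in 32 cells and 73 UMIs in 65 cells (0.92, 0.31 to 1.56), and Cxcr6, a chemokine receptor of tissue-resident cells, had 393 and 598 UMIs (0.38, 0.19 to 0.57). Ccl5 was at 0.21 (0.14 to 0.28) and Runx3 at 0.22 (0.07 to 0.37). Ifng had 458 UMIs in 180 cells and 460 UMIs in 185 cells, a log2 ratio of −0.22 (−0.41 to −0.03) with more UMIs in all in the MWA plus TIGIT members. Without the highest cell of each library, which held 45 and 16 Ifng UMIs, it was −0.12 (−0.32 to 0.07). Ly6c2, Hopx and Bhlhe40 lay at −0.14, −0.33 and −0.22.

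Cd40lg itself had 276 UMIs in the MWA library and 412 in the MWA plus TIGIT library, a log2 ratio of 0.35 (0.13 to 0.58). After thinning to 1000 UMIs its share was 10.6% (8.23 to 13.3) of 595 cells and 13.8% (11.2 to 16.8) of 617 cells, a difference of 3.19 points (−0.615 to 6.98) whose interval held 0. In the 189 and 181 members without a C1q UMI the log2 ratio was 0.12 (−0.32 to 0.57). By cluster, the unthinned share was 38% and 52.9% in cluster 1, a difference of 14.9 points (4.76 to 24.7), with median depths of 4184 and 4718 UMIs. The other costimulatory molecules were mixed. Of the 11 in the list 0 were called, 4 had intervals above 0 and 2 below, beside 12.3% and 3.43% of all measured genes. Cd6 (0.47, 0.27 to 0.68) and Cd5 (0.29, 0.12 to 0.46), receptors that tune the T cell receptor signal, had intervals above 0, as did Tnfrsf18 (0.22, 0.09 to 0.36). Cd28 (−0.20, −0.36 to −0.04) and Cd2 (−0.13, −0.25 to −0.01) had intervals below 0. Icos, Tnfrsf4, Tnfrsf9, Cd27 and Slamf1 had intervals that held 0.

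The receptor targeted by the antibody was rarely seen in these cells. Tigit had 14 UMIs in 13 members of the MWA library and 19 UMIs in 15 members of the MWA plus TIGIT library, a log2 ratio of 0.21 (−0.86 to 1.32), and a difference was not detectable at this depth. Cd226, its activating counterpart, had 298 and 365 UMIs (0.07, −0.16 to 0.29), and Cd96, another receptor of the family, had 138 and 143 (−0.17, −0.52 to 0.17). Pvrig had 6 and 17. Tigit stood at 5.85 and 6.78 CPM in the members against 19.1 and 46.8 in regulatory T cells, and Cd226 at 124 and 130 against 29.5 and 39.9. Of the 10 measured inhibitory receptors and exhaustion genes 0 were called, beside 2.39% of all measured genes called higher and 0.567% lower. Pdcd1 had 75 and 112 UMIs (0.35, −0.08 to 0.79), Ctla4 509 and 569 (−0.07, −0.24 to 0.11) and Lag3 58 and 77 (0.18, −0.33 to 0.70). Cd200 was the 1 gene of these 10 with an interval above 0 (0.79, 0.19 to 1.42), beside 12.3% of all measured genes. In cluster 6, which it helped to define, Cd200 had 14 and 44 UMIs.

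Cytokine transcripts came from few cells. Of 17 measured genes of secreted and TNF family cytokines 3 were called higher and 0 lower, beside 2.39% and 0.567% of all measured genes, with a median log2 ratio of 0.26 beside 0.13. Il13, the T helper 2 cytokine, had 7 UMIs in 5 cells and 39 UMIs in 6 cells (2.25, 1.07 to 3.66), and 18 of the 39 were in 1 cell of cluster 3. Il17a had 25 UMIs in 7 cells and 63 UMIs in 8 cells (1.11, 0.42 to 1.84), with 23 of the 63 in 1 cell and a ratio of −1.07, on the other side of 0, in members without a C1q UMI, while Il22 had 63 and 61 UMIs (−0.27, −0.80 to 0.26). Csf1, the macrophage growth factor, had 13 UMIs in 10 cells and 36 UMIs in 23 cells (1.24, 0.29 to 2.28). The numbers of cells with Il13 and Il17a were thus alike in both libraries, and those with Csf1 were not. Il2 had 29 UMIs in 23 cells of each library, Il10 50 and 70 UMIs, Ltb 1348 and 1646 and Tnf 109 and 163 (0.35, −0.00445 to 0.72). Lta was at 0.49 (0.11 to 0.87) and Tnfsf8 at 0.38 (0.17 to 0.59). Of the Tnfsf8 UMIs, 114 of 308 and 268 of 468 were in cluster 6, which Tnfsf8 helped to define. Of the T helper 2 list, Il1rl1, the interleukin-33 receptor, was also called, with 17 UMIs in 14 cells and 52 in 17 cells, but 22 of the 52 were in 1 cell and its ratio was −0.33 without members that held Il2ra or Ikzf2. Il4ra was at −0.66 (−1.11 to −0.21).

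Penk, the precursor of enkephalin peptides (chromosome 4, 4133531 to 4138819, minus strand), had 60 UMIs in 13 members of the MWA library and 330 UMIs in 26 members of the MWA plus TIGIT library, a log2 ratio of 2.23 (1.83 to 2.66). Of these UMIs 12 in 6 cells and 241 in 16 cells were in cluster 6, which Penk helped to define, and 37 of the 60 were in 1 cell. Without the highest cell of each library the log2 ratio was 3.40 (2.79 to 4.08). Penk was also seen in regulatory T cells, at 122 and 212 CPM (0.80, 0.36 to 1.2), and at 4.88 and 8.25 in CD8 T cells. Lgals7, a galectin, had 47 UMIs in 31 cells and 195 UMIs in 41 cells (1.83, 1.36 to 2.32), with 69 of the 195 in 1 cell. Cluster 6, which Lgals7 also helped to define, held 3 of the 47 and 133 of the 195, in 13 cells of both libraries together.

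Some adhesion and T cell receptor signalling genes had ratios above 0, without a call, while both list medians, 0.09 each, were at −0.02 with TMM factors. Of the 18 measured chemokine receptors and homing genes 6 had intervals above 0 and 0 below. Itgb1, the β1 integrin, had 608 and 961 UMIs (0.43, 0.29 to 0.58), and after thinning it was seen in 20.5% and 28.8% of the cells, a difference of 8.35 points (3.38 to 13.3). Itgb7 was at 0.33 (0.14 to 0.51) and Ccr2 at 0.28 (0.05 to 0.51). Of the 19 T cell receptor signalling genes 4 had intervals above 0, among them Nfatc1 (0.46, 0.15 to 0.76, with 31 of 236 UMIs in 1 cell) and Ptprc (0.32, 0.22 to 0.41), and 1, Cblb, had an interval below 0 (−0.30, −0.56 to −0.04). Of the 20 immediate early and NR4A genes 9 had intervals above 0 and 2 below. Egr1 had 298 and 490 UMIs (0.49, 0.28 to 0.70) and Nr4a2 38 and 74 (0.74, 0.15 to 1.34), but Nr4a3 had 117 and 78 (−0.81, −1.24 to −0.39). The median of that list, 0.18, was close to that of all genes, where 12.3% had intervals above 0 and 3.43% below.

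Naive, follicular helper, T helper 17, cytokine receptor and glycolysis genes had list medians of −0.02, 0.13, −0.12, 0.04 and −0.06, beside 0.13 for all measured genes. The only call among them was Il17a, beside 2.39% of all measured genes called higher and 0.567% lower. In the same order, 2 of 12, 2 of 7, 1 of 6, 1 of 21 and 0 of 17 genes had intervals above 0. Intervals below 0 numbered 1, 0, 0, 2 and 2. Among all measured genes 12.3% had intervals above 0 and 3.43% below. Il7r, the interleukin-7 receptor, had 602 and 842 UMIs (0.26, 0.11 to 0.41), and Satb1, a chromatin organizer of naive T cells, had 331 and 313 (−0.31, −0.53 to −0.08). Of the follicular helper list, Bcl6 had 9 and 12 UMIs, and Maf (0.34, 0.17 to 0.50) and Izumo1r (0.69, 0.36 to 1.03), the folate receptor 4 gene, had intervals above 0. Izumo1r is also on the list of regulatory T cell markers, and it had 74 and 124 UMIs in the regulatory T-like cluster 3, which it helped to define. Of the 17 glycolysis and hypoxia genes, Bnip3 was at −0.89 (−1.34 to −0.44), whereas Gapdh, Ldha, Pkm and Slc2a1 had intervals that held 0.

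Interferon-induced genes were compared in 2 lists. The type I list had a median log2 ratio of 0.01 over 19 genes, with 10 ratios above 0, 3 intervals above 0 and 2 below. The interferon-γ list had a median of 0.17 over 18 genes, with 15 ratios above 0, 6 intervals above 0 and 1 below. Of all 9179 measured genes 6105 had a ratio above 0, 12.3% an interval above 0 and 3.43% one below. There were 0 calls in either list, beside 2.39% of all measured genes called higher and 0.567% lower. Rsad2 had 90 and 59 UMIs (−0.84, −1.33 to −0.35), but 47 of the 90 were in 1 cell and its ratio was 0.13 (−0.47 to 0.74) without the highest cell of each library. Ratios of Usp18 (0.67, 0.15 to 1.20), Ifi206 (0.45, 0.17 to 0.73) and Irgm1 (0.52, 0.16 to 0.89) had intervals above 0. The antiviral membrane proteins of the Ifitm family, outside these lists, were among the lowest ratios. Ifitm1 had 323 UMIs in 49 cells and 179 UMIs in 25 cells (−1.08, −1.35 to −0.81), Ifitm2 had 1224 and 839 UMIs (−0.77, −0.90 to −0.64) and Ifitm3 had 1426 and 1042 (−0.68, −0.80 to −0.56). In CD8 T cells Ifitm1 was at 0.29 (0.19 to 0.38) and Ifitm3 at 0.37 (0.24 to 0.49), on the other side of 0, and Ifitm2 at −0.49 (−0.62 to −0.36). Ifitm2 and Ifitm3 are also macrophage genes, seen after thinning in 46.5% and 55.4% of the macrophages of the MWA library. In the members without a C1q UMI their ratios were −0.79 (−1.05 to −0.53) and −1.22 (−1.46 to −0.98). These genes and Gstp1 have close relatives in the genome, and whether this affected their counts was not tested.

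Gstp1, which encodes a glutathione transferase (chromosome 19, 4035407 to 4037985, minus strand), had 323 UMIs in 229 cells of the MWA library and 198 UMIs in 144 cells of the MWA plus TIGIT library, a log2 ratio of −0.93 (−1.19 to −0.67). After thinning it was seen in 13.4% and 6.00% of the cells, a difference of −7.45 points (−10.9 to −4.03), beside 1.48% and 0.832% of macrophages. The ratio was −1.04 (−1.18 to −0.89) in CD8 T cells and −0.64 (−1.23 to −0.07) in regulatory T cells, so that Gstp1 was lower in all 3 kinds of T cell. Emp1, Egln1, Zfp672, Lilrb4a and Litaf lay at −0.96, −0.71, −0.68, −0.67 and −0.66.

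Transcripts of other cell types were present in the members and partly differed between the libraries. All 13 macrophage and monocyte markers were detected, with a summed level of 1484 CPM in the MWA library and 1363 in the MWA plus TIGIT library. Of the 12 dendritic cell markers 10 and 11 were detected, at 526 and 867 CPM, and 1 cell held 14.3% and 25.2% of these UMIs. Cd74 was at 0.65 (0.50 to 0.79) and H2-Ab1 at 0.96 (0.72 to 1.21), both MHC class II pathway genes with 248 and 130 of their UMIs in 1 cell of the MWA plus TIGIT library. Cst3, which myeloid cells express strongly, had 621 and 1389 UMIs with 409 in 1 cell. The myeloid-led cluster 9 held 142 of the 621 and 819 of the 1389 Cst3 UMIs, and 186 and 565 Cd74 UMIs. Of the 7 neutrophil markers 7 and 6 were detected, at 111 and 43.6 CPM, and S100a8 had 66 UMIs in 8 cells and 9 UMIs in 7 cells. The chemokine Cxcl2, made by myeloid cells, had 243 and 70 UMIs with all members, but a log2 ratio of 0.72, on the other side of 0, in members without a C1q UMI. B cell markers were at 47.2 and 63.9 CPM, with 3 and 8 of 8 detected. Of the 12 natural killer T and gamma-delta T cell markers in the files 9 and 8 were detected, at 281 and 237 CPM. Their UMIs were in 265 and 281 members, and 1 cell held 12.2% and 18.9% of them. Of these markers Zbtb16 and Sox13 were at 0 in both libraries, and Trdc had 19 UMIs in 5 cells and 5 UMIs in 3 cells. Of the 12 regulatory T cell markers 10 were detected in each library, at 1659 and 1788 CPM against 7961 and 8933 in regulatory T cells, with Foxp3 at 0 by choice and Gpr83 at 0. Tumor cell and stroma markers summed to 28.8 and 28.6 CPM. Their part in the differences was not tested.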

How the data were processed

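Single-cell RNA-seq (10x 3′ gene expression) was deposited by the authors as 2 filtered matrices of UMI counts over 32285 genes. Per the labels, the authors used Cell Ranger 6.1.1 with mm10, while the file headers name version 4.0.0. The counts were used as deposited, with 20407 barcodes. Those kept (10037 and 9913) had 200 or more genes and no more than 10% of UMIs from mitochondrial genes. The members held 2394268 and 2800885 UMIs. The members, gene lists and comparisons were chosen with earlier results of these data known.

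UMIs were summed over the cells of each library and divided by their total (CPM). With 1 library per group no p-value was computed. Ratios carry exact conditional binomial intervals, shares exact Clopper-Pearson intervals and differences of shares Newcombe-type intervals from them. A sum of 0 was set to 3 counts in a ratio, and no ratio was formed where both sums were at most 3. Genes of the choice were left out of the 9179 genes measured. For shares, cells were thinned to 1000 UMIs, which left out 8 and 2 members with fewer.

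Named were the genes of the fixed lists, the 12 highest and 12 lowest ratios where either library reached 50 CPM, the sum reached 20 UMIs and the interval left out a ratio of 1 (mitochondrial, ribosomal, receptor, immunoglobulin, histone and unnamed genes excepted), and the 10 highest over CD8 T cells and over regulatory T cells. Leading genes are named for each cluster. Prc1, Bub3 and the Ifitm genes came from the second part of this rule. Clusters used 2000 variable genes centred within each library, 20 components, 15 neighbours and the Leiden method at resolution 0.8 (leidenalg 0.10.2, igraph 0.11.9). Doublets were scored against simulated ones and the top 8.03% and 7.93% were marked, but kept. TMM factors came from edgeR 4.0.16 in R 4.3.3. Gene positions are those of GENCODE M21. The ratio and doublet steps were tested on simulated data. The sums simulated for the ratio step varied by counting error alone, which the intervals assume. They therefore cannot show how 1 cell that fills a gene's sum affects a ratio. Alternatives were an upper limit of 5000 UMIs, 2 or more Cd4 UMIs, no Il2ra or Ikzf2 UMI, no C1q UMI, other mitochondrial and doublet limits, thinning, TMM and other minimum counts; leaving out the highest cell of each gene, leaving out clusters 3 and 9, and clustering without called genes were chosen after seeing the data. Some genes of the lists are not reported here.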

Additional observations from a re-analysis of the deposited data

Results flagged for a closer look

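Cd40lg was seen in T cell barcodes that no comparison used. These were T cell barcodes with fewer than 10 C1q UMIs and without a UMI of Cd4, Cd8a, Cd8b1 or Foxp3. Among them Cd40lg had a UMI in 264 of 1242 cells of the MWA library, 21.3% (19.0 to 23.6). In the MWA plus TIGIT library it had a UMI in 224 of 886 cells, 25.3% (22.5 to 28.3). Both shares were above the limit that a count of 0 allows (0.242% and 0.339%). Their median depth was 3020 and 3228 UMIs. Trdc, the constant gene of the T cell receptor delta chain, had a UMI in 7.49% and 9.48% of these cells. These barcodes held 392 and 349 Cd40lg UMIs, beside 276 and 412 in the members.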

How the results depend on the processing

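Of the alternatives to the summary values, 226 moved them by less than their limit, 38 by more and 2 turned the direction. Among values of single genes these numbers were 2868, 432 and 5. With barcodes over 5000 UMIs left out, the difference in the share of T cell barcodes was −0.0132 points, 130 genes were called higher, and the median log2 ratios were 0.22 for cytotoxic, 0.0676 for immediate early and 0.27 for cell cycle genes. With Cd4 of at least 2 UMIs the medians were −0.0279 for T helper 1, 1.21 for T helper 2, 0.15 for T helper 17, −0.0360 for inhibitory receptor, 0.21 for costimulatory, 0.0902 for immediate early, −0.27 for type I interferon and 0.76 for cell cycle genes. With Il2ra or Ikzf2 members left out they were 0.0189 for costimulatory, −0.11 for type I interferon and 0.46 for cell cycle genes, and Il1rl1 was at −0.33. In members without a C1q UMI, 32 genes were called lower, and the medians were 1.03 for T helper 2, 0.23 for naive, 0.26 for cytotoxic, 0.0664 for interferon-γ, 0.53 for cell cycle and 0.20 for T cell receptor genes. There Cxcl2 was at 0.72 and Il17a at −1.07, the latter against 3 counts. After thinning to 1000 UMIs, 115 genes were called higher, the medians were 0.18 for T helper 17, 0.0573 for cytokine, −0.0789 for cytokine receptor and −0.11 for type I interferon genes, and Il1rl1 was at −0.0524. With TMM factors the medians were −0.0378 for T helper 1, 0.00279 for costimulatory, −0.0749 for cytokine receptor, −0.0244 for homing, 0.0633 for immediate early, −0.11 for type I interferon, 0.0578 for interferon-γ, 0.52 for cell cycle, −0.0228 for T cell receptor and −0.17 for glycolysis genes. A minimum of 10 or 1 summed UMIs gave 81 or 91 genes called lower, which follows from more genes being measured. Without clusters 3 and 9, Calca was at −2.90. Except for the minimum counts, the cause was not tested. No paired analysis was possible because each group was 1 library, and no replicate could be left out. Depth limits Tigit, Pvrig, Il13 and Il17a, whose UMIs were in 5 to 15 cells of each library.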
